A study of Drosophila melanogaster with 17 samples.

Results

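Irradiated eye discs of Drosophila larvae mutant for Dp (dDP) were compared with irradiated discs from which E2f1 had been removed in the posterior (de2f1). The comparison held 6 of the 17 arrays of the study, namely dDP irradiated replicates 1, 2 and 3 set against de2f1 irradiated replicates 1, 2 and 3. These arrays were chosen by genotype and treatment labels alone. The study profiled 3rd instar eye imaginal discs, the larval tissue that forms the adult eye and antenna, on the Affymetrix Drosophila Genome 2.0 array. The 6 groups were dDP mutant, de2f1 and wild type discs, each either untreated or taken 4 h after gamma irradiation with 40 Gy. There were 3 biological replicates per group and 2 (numbers 1 and 3) for irradiated wild type. All larvae were raised at 25 °C on standard food. Each array received 50 ng of total RNA. The dDP and de2f1 alleles, the way E2f1 was deleted, the strain backgrounds and the number of discs per sample are not stated in the labels. The de2f1 discs keep E2f1 in their anterior, so whole discs mix deleted and intact cells. Genotype and strain background cannot be told apart in this comparison.

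E2F transcription factors bind DNA as dimers with Dp. Drosophila has an activator, E2f1, which drives genes of DNA replication and cell division, and a repressor, E2f2, which acts with the retinoblastoma proteins Rbf and Rbf2 and the dREAM complex. Because both use Dp, loss of Dp removes activation and repression together, whereas loss of E2f1 leaves the repressor dimer in place. In the larval eye disc these proteins act on the cells that divide ahead of and behind the morphogenetic furrow, and after radiation on cell death. The question set by the 2 mutants is which transcripts differ when the shared partner is lost instead of the activator alone.

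Values below are log2 signals per probe set. A difference is the dDP mean minus the de2f1 mean on that scale, with the standard error of the fit, and a gene was called higher or lower at a Benjamini-Hochberg adjusted p (limma) below 0.05 over all 18769 probe sets. The gene lists below were chosen with earlier results of these data known. Their shares of calls, set beside those of all genes, are therefore descriptions and not tests. Dp itself was measured at 8.88, 8.25 and 8.69 in the irradiated dDP discs, against 10.12, 10.29 and 10.2 in irradiated de2f1 discs. Irradiated wild type discs had 10.04 and 10.23. The groups did not overlap, and Dp was lower in dDP discs by a difference of -1.6 ± 0.19 (adjusted p = 2.6e-05). The remaining signal in dDP discs lay well above the floor of the arrays, and the place of its probes relative to the lesion is unknown. E2f1 has no probe set of its own and was not analysed here.

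The mutant arrays were of like technical quality, with a small offset in level. Array medians were 5.90 to 5.95 in dDP and 5.83 to 5.86 in de2f1 discs, and the excess of the 3-prime over the 5-prime actin controls, a measure of RNA integrity, was 1.85 to 2.09 in dDP and 1.83 to 2.03 in de2f1 discs. Correlations over probe sets were 0.991 to 0.995 among the dDP arrays, 0.995 to 0.997 among the de2f1 arrays and 0.978 to 0.986 between them. Salivary gland markers, from a tissue that is not part of the disc, averaged 7.14 on dDP array 1 against 12.15 and 12.22 on dDP arrays 2 and 3, and 10.10 to 12.55 on the de2f1 arrays. With the salivary level as a covariate, 4761 probe sets were called in place of the 4870 given below. The defining eye genes were present throughout, retinal determination genes averaging 10.39 to 10.44 in dDP and 10.20 to 10.41 in de2f1 discs.

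The mutants differed widely. Of 18769 probe sets 4870 were called (25.9%), of which 2177 were higher in dDP discs (11.6%) and 2693 lower (14.3%). Large differences leaned the other way, with 448 probe sets higher and 191 lower beyond 2-fold and 39 higher and 13 lower beyond 8-fold. Over the 11982 genes with a probe set of their own, 1750 were higher (14.6%) and 1999 lower (16.7%), and the median difference was -0.036. The 3 dDP and 3 de2f1 arrays did not overlap for 49.7% of genes, 21.6% with dDP higher and 28.1% with dDP lower. Among the 364 genes higher by more than 2-fold, the irradiated wild type mean lay nearer the de2f1 mean for 320 and nearer the dDP mean for 44. For the 166 genes lower by more than 2-fold it lay nearer de2f1 for 141 and nearer dDP for 25. Since de2f1 discs also hold intact cells, nearness to wild type does not give the level in the deleted cells. The share over all genes is not given here. In bulk discs, fewer cells of a type and less RNA per cell cannot be told apart.

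Most of the difference was also present without radiation. In the untreated discs, which share no array with the irradiated ones, 4184 probe sets were called between the same genotypes (22.3%). Of the 4870 calls in irradiated discs 4553 (93.5%) had the same sign in untreated discs, and 2916 were called there with that sign, which is 59.9% of the irradiated and 69.7% of the untreated calls. By contrast, 9 were called with opposite signs. Of the 639 probe sets beyond 2-fold in irradiated discs, 638 had the same sign and 605 were called in untreated discs. The test of the difference itself, the irradiated minus the untreated genotype difference, called 22 probe sets (0.117%), 12 of them with a value above 0 (0.0639%) and 10 below (0.0533%), with 2006 at an unadjusted p under 0.05. The count of 22 rested on the arrays used, being 14 without de2f1 untreated array 1, 1284 without dDP untreated array 1 and 1365 with array weights.

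The untreated dDP arrays were less even than the irradiated ones. The actin excess was 2.01, 3.04 and 3.01 on dDP untreated arrays 1, 2 and 3, against 1.95, 2.35 and 2.08 on the de2f1 untreated arrays. The mean of the fat body markers was 9.78, 6.39 and 6.52 on the same 3 dDP arrays, against 5.86 to 8.60 on the de2f1 arrays, and dDP array 1 had the lowest weight of the 17 (0.198). Salivary gland markers averaged 5.8 to 6.85 on the untreated dDP and 6.61 to 12.59 on the untreated de2f1 arrays. With the salivary covariate 3277 probe sets were called in untreated discs in place of 4184. The part of RNA integrity and fat body in the untreated differences was not tested.

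**Figure D1:**
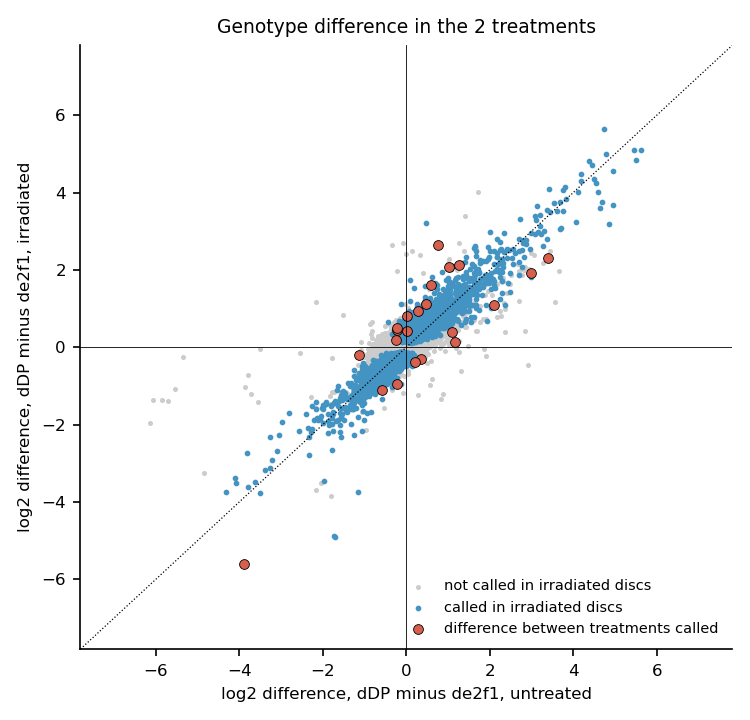
Difference between dDP and de2f1 discs for each of the 18769 probe sets, in untreated discs (horizontal axis, log2) and irradiated discs (vertical axis, log2), the dotted line marking equal differences. Most called probe sets (blue) lie along the line, and the 22 with a called difference between treatments are shown in red.

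Most of the 12 largest rises in dDP discs were of genes barely above background in de2f1 discs, 8 of them with a de2f1 mean of 5.0 or less. The 12 largest rises and 12 largest falls were taken from called genes whose dDP and de2f1 arrays did not overlap. Separation of the mutant groups was thus fixed by the choice. The floor is taken as 4.6, the highest lower quartile of any array, and a difference from a group mean below it is a lower bound. CG10307 had 10.05, 9.96 and 9.95 in dDP discs against 4.84, 4.98 and 4.84 in de2f1 discs and 4.9 and 4.84 in wild type. The 3 dDP arrays lay within a narrow band far above all others (5.1 ± 0.07, adjusted p = 2.0e-14). CG7997, which codes for an alpha-galactosidase of the lysosome, had 12.27, 12.17 and 12.2 in dDP discs, against 7.2, 7.3 and 7.17 in de2f1 discs and 6.44 and 6.68 in wild type (4.99 ± 0.18, adjusted p = 2.8e-10). It was already well expressed in de2f1 discs and rose further by 31.8-fold. IFT52, a part of the intraflagellar transport machinery of cilia, had 10.32, 10.03 and 10.09 in dDP against 5.42, 5.54 and 5.34 in de2f1 discs (4.71 ± 0.11, adjusted p = 1.3e-12). The RNA helicase gene vas, a marker of germ cells, had 9.13, 9.11 and 8.9 in dDP against 4.66, 4.47 and 4.6 in de2f1 and 4.63 and 4.5 in wild type discs (4.47 ± 0.08, adjusted p = 9.4e-14). In the de2f1 group its mean was below the floor, so this difference is a lower bound. Also among the 12 largest rises were CG7755 (4.57 ± 0.1), the guanylate cyclase gene Gyc89Da (4.3 ± 0.15), Kots (4.24 ± 0.13), CG14545 (4.14 ± 0.21), CG11893 (4.1 ± 0.51) and CG13215 (4.02 ± 0.41). Untreated differences of these 6 were 3.41 to 4.95.

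For 2 of the 12 the pattern was less plain. The cubilin-like gene Cubn2 read 10.06, 9.96 and 9.93 in dDP and 4.85, 3.96 and 4.22 in de2f1 discs (5.64 ± 0.52, adjusted p = 2.9e-06), a lower bound by the floor, but the other probe set of the gene differed by 0.30. CG9757 had 10.37, 11.81 and 10.83 in dDP, 6.2, 6.56 and 5.83 in de2f1 and 9.43 and 9.99 in wild type discs. Here it was the de2f1 discs that stood apart, with wild type close to dDP (4.8 ± 0.42, adjusted p = 1.9e-06).

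**Figure D2:**
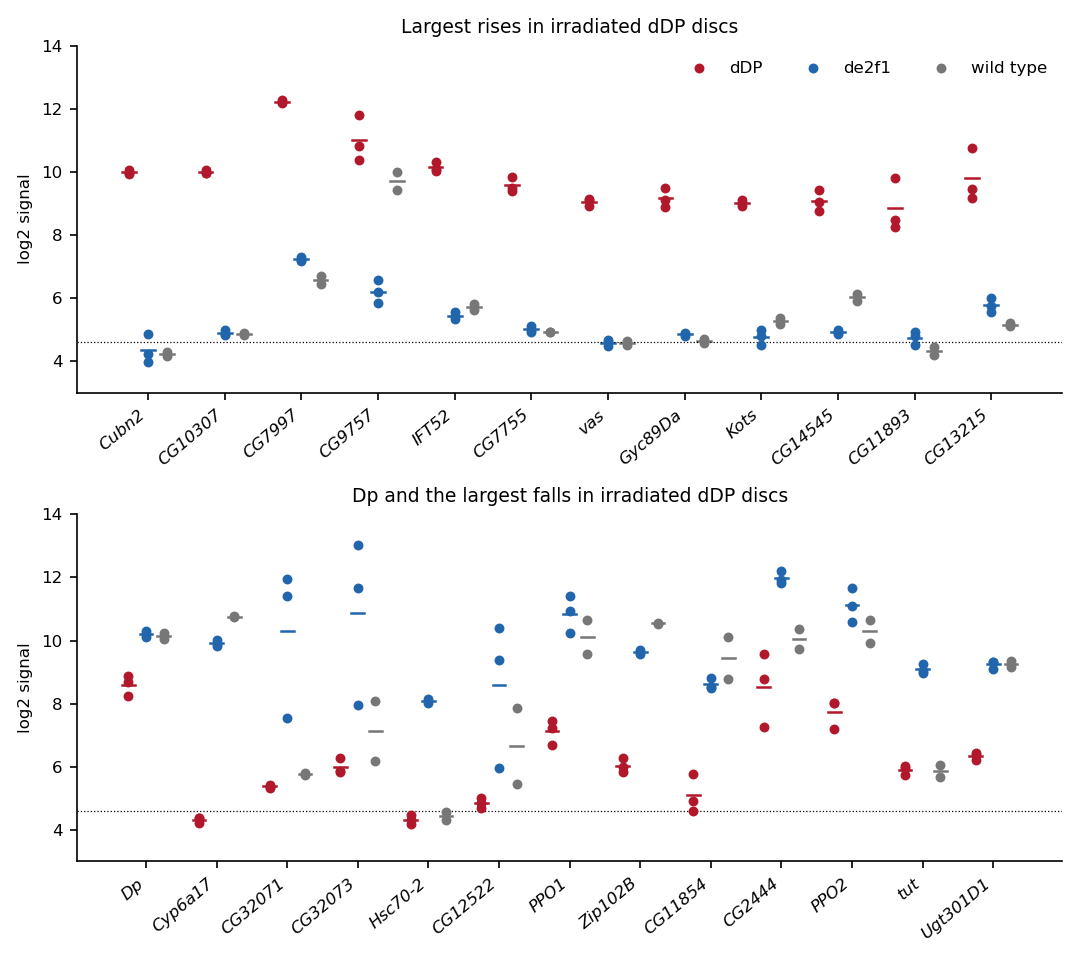
Log2 signal on each irradiated array (points, bars for group means) for the 12 largest rises in dDP discs (top) and for Dp with the 12 largest falls (bottom), in dDP (red), de2f1 (blue) and wild type (grey) discs, the dotted line marking the floor of 4.6. Among the rises wild type sits with de2f1 except for CG9757, and among the falls Hsc70-2 and tut are examples that are high in de2f1 discs but not in wild type.

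Among the 12 largest falls, wild type levels stood with de2f1 for some genes and with dDP for others. Cyp6a17, a cytochrome P450 known for a role in temperature preference, had 4.2, 4.37 and 4.39 in dDP discs, against 10.03, 9.82 and 9.88 in de2f1 discs and 10.77 and 10.74 in wild type. All 3 dDP arrays were below the floor, which makes -5.59 ± 0.12 a lower bound in size (adjusted p = 9.9e-13). Zip102B, a zinc transporter gene, had 6.26, 6.0 and 5.82 in dDP against 9.56, 9.62 and 9.7 in de2f1 and 10.57 and 10.52 in wild type discs (-3.6 ± 0.16, adjusted p = 2.1e-09). The glycosyltransferase gene Ugt301D1 followed the same order, with 6.2, 6.38 and 6.44 in dDP, 9.1, 9.32 and 9.32 in de2f1 and 9.16 and 9.37 in wild type discs (-2.91 ± 0.13, adjusted p = 1.9e-09). In contrast, the chaperone gene Hsc70-2 had 4.32, 4.48 and 4.18 in dDP, 8.1, 8.14 and 8.03 in de2f1 and 4.33 and 4.57 in wild type discs (-3.76 ± 0.09, adjusted p = 3.7e-12). Only the de2f1 arrays carried a signal above the floor. The germline gene tut, whose product works with Bam and Bgcn in the testis, had 5.75, 6.01 and 5.96 in dDP, 9.03, 9.27 and 8.97 in de2f1 and 5.66 and 6.07 in wild type discs (-3.18 ± 0.15, adjusted p = 4.2e-09). CG11854 (-3.51 ± 0.38) and CG2444 (-3.45 ± 0.43) fell too.

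The levels of CG32071, CG32073 and CG12522 varied within the de2f1 group. CG32071 had 5.36, 5.44 and 5.34 in dDP and 11.94, 11.4 and 7.53 in de2f1 discs, array 3 being far below the other two (-4.91 ± 1.17, adjusted p = 0.00675). Without de2f1 array 3 its difference was -6.29, and without de2f1 array 1 it was -4.09. CG32073 (-4.89 ± 1.21) had -6.35 and -3.82 under the same omissions. CG12522 (-3.73 ± 0.98, adjusted p = 0.0115) had -5.05 and -2.82, and its call was lost without de2f1 array 1 (limma adjusted p = 0.0597, over its alternatives 5.0e-04 to 0.0597). None of the 3 was called in untreated discs, and salivary gland markers had the same order over the de2f1 arrays, at 12.55, 11.84 and 10.10. Over the dDP arrays those markers ran 7.14, 12.15 and 12.22 while CG32071 stayed between 5.34 and 5.44. The part of those markers in these differences was not tested beyond a covariate, with which CG32071 stood at -4.49.

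The E2F, RB and dREAM subunits split. Of 10 measured members 3 rose and 4 fell, against 14.6% and 16.7% of all genes, with a median of -0.02. Rbf2, which codes for the second retinoblastoma protein of the fly, had 9.59, 9.5 and 9.44 in dDP against 8.34, 8.54 and 8.41 in de2f1 and 8.49 and 8.44 in wild type discs (1.08 ± 0.08, adjusted p = 2.8e-07). Every dDP array was about a log2 unit above the rest. Rbf rose by 0.33 ± 0.06 (adjusted p = 6.1e-04) and the repressor gene E2f2 by 0.27 ± 0.05 (adjusted p = 6.4e-04). Besides Dp, the dREAM subunit genes mip40 (-0.45 ± 0.06) and mip130 (-0.43 ± 0.11) fell. mip120 also passed (-0.19 ± 0.06, adjusted p = 0.0317), but not without de2f1 array 2 or 3, without dDP array 2 or 3 or with the 6 arrays fitted alone (limma adjusted p over its alternatives 0.00648 to 0.134).

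Genes of DNA replication rose together in dDP discs. Of 41 S phase genes 33 were higher and 3 lower than in de2f1 discs, with a median difference of 0.51, against 14.6% and 16.7% called and a median of -0.036 over all genes. In the untreated discs 26 were higher and 2 lower with a median of 0.40, against 28.3% of all genes in untreated discs, 13.6% higher and 14.7% lower. The mean over the list was 9.93 to 10 on the dDP arrays, 9.39 to 9.48 on the de2f1 arrays and 9.42 to 9.46 in wild type, so the dDP arrays were the ones set apart.

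Prim1, the primase that starts each new DNA strand, had 9.42, 9.3 and 9.23 in dDP, 7.56, 7.67 and 7.51 in de2f1 and 7.48 and 7.76 in wild type discs (1.73 ± 0.08, adjusted p = 4.6e-09). Polymerase epsilon, the leading strand enzyme, rose through its subunits PolE2 and PolE1. PolE2 had 9.43, 9.41 and 9.46 in dDP, 8.02, 8.07 and 8.18 in de2f1 and 7.98 and 8.01 in wild type discs (1.35 ± 0.06, adjusted p = 7.4e-10), and PolE1 rose by 1.29 ± 0.07. The polymerase alpha subunit gene PolA2 rose by 0.94 ± 0.06, and timeout, a relative of timeless with a role in chromosome replication, by 1.18 ± 0.08. Thymidylate synthase gene Ts, which supplies thymidine for replication, had 9.4, 9.31 and 9.29 in dDP, 8.19, 8.45 and 8.17 in de2f1 and 8.28 and 8.28 in wild type discs (1.06 ± 0.09, adjusted p = 1.1e-06).

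The licensing factor gene dup, which loads the replicative helicase, was the only S phase gene with a called difference between treatments. For the others, the lack of a call does not show equal differences in both treatments. RfC3, for example, differed by -0.48 in irradiated and 0.13 in untreated discs. dup had 10.19, 10.05 and 10.18 in irradiated dDP discs, against 9.17, 9.22 and 9.18 in irradiated de2f1 and 9.27 and 9.18 in irradiated wild type discs (0.95 ± 0.05, adjusted p = 2.1e-08). In untreated discs the means were 10.1 in dDP and 9.81 in de2f1, a difference of 0.29 ± 0.05, and the difference between treatments was 0.66 ± 0.08 (adjusted p = 0.00243). The ribonucleotide reductase gene RnrL had 12.23, 12.36 and 12.2 in dDP, 11.62, 11.85 and 11.71 in de2f1 and 12.22 and 12.23 in wild type discs (0.54 ± 0.06, adjusted p = 3.1e-05). Here wild type was level with dDP. The untreated difference of RnrL was 0.06 ± 0.06 (adjusted p = 0.558), and the difference between treatments was not called (adjusted p = 0.0755).

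A few S phase genes did not follow. PCNA, the sliding clamp and a standard E2F target, had 11.49, 11.45 and 11.44 in dDP, 11.58, 11.66 and 11.6 in de2f1 and 11.68 and 11.63 in wild type discs. It was lower in dDP discs (-0.16 ± 0.05, adjusted p = 0.0324), by an amount that did not pass without de2f1 array 2 or 3, without dDP array 2 or 3, after quantile normalization or with the 6 arrays fitted alone (limma adjusted p over its alternatives 0.0123 to 0.116). The untreated PCNA difference was -0.48 ± 0.05 (adjusted p = 9.6e-06). The GINS subunit gene Psf1 (-0.41 ± 0.06) and the clamp loader gene RfC3 (-0.48 ± 0.11) were the other called falls, chosen for mention after their values were seen. The G1/S cyclin gene CycE had 10.68, 10.48 and 10.82 in dDP and 10.74, 10.65 and 10.71 in de2f1 discs, overlapping values (-0.04 ± 0.09, adjusted p = 0.796).

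**Figure D3:**
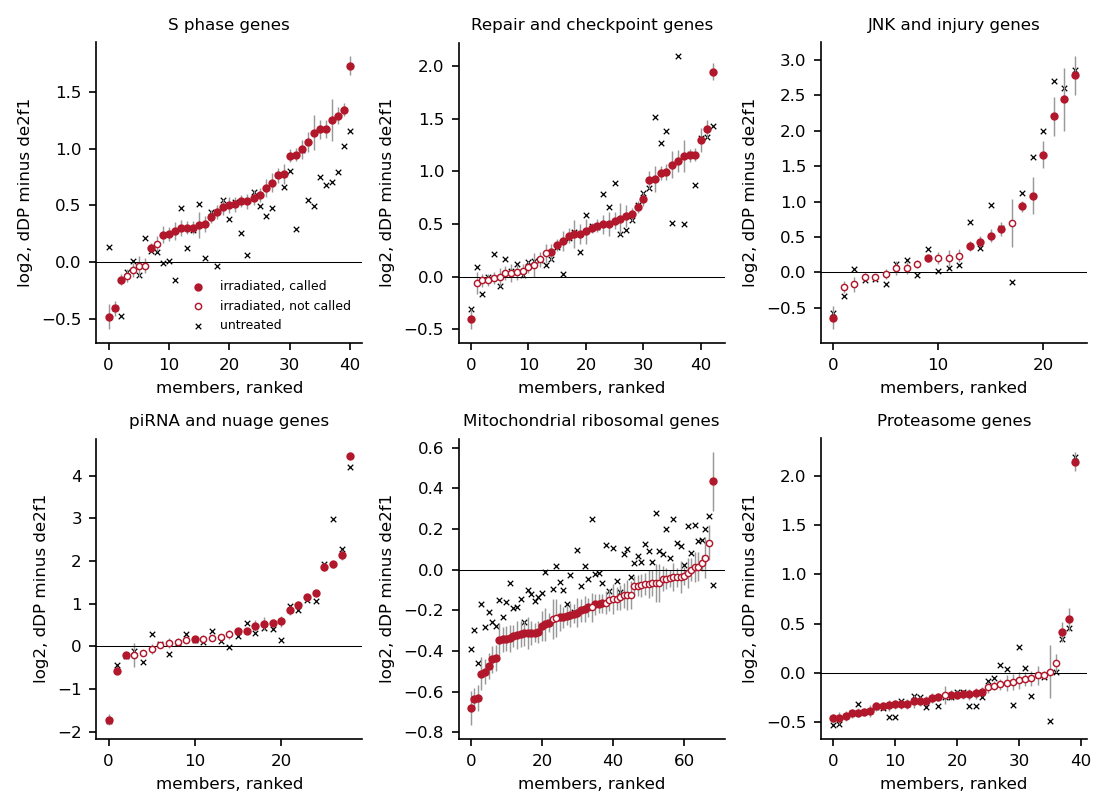
Difference between irradiated dDP and de2f1 discs (red points, bars for the standard error, filled where called) for every measured member of 6 gene lists ranked by size, with the untreated difference as a cross. Of the members 34 of 41 S phase and 37 of 43 repair genes lie above 0, while 62 of 69 mitochondrial ribosomal and 35 of 40 proteasome genes lie below it.

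Mitotic genes rose less uniformly. Of 38 G2 and M phase genes 21 were higher and 4 lower, against 14.6% and 16.7% of all genes, with a median of 0.21, and in untreated discs 26 and 3 with a median of 0.29. The centromere histone gene cid had 8.24, 8.26 and 8.02 in dDP, 6.55, 6.66 and 6.54 in de2f1 and 6.78 and 6.79 in wild type discs (1.59 ± 0.09, adjusted p = 1.6e-08). The kinetochore gene Ndc80 (0.66 ± 0.05), the spindle gene mars (0.73 ± 0.06) and the separase regulator gene thr (0.83 ± 0.07) rose. cort, a female meiosis form of the anaphase-promoting complex activator, rose by 1.33 ± 0.11, more than its mitotic relative fzy (0.55 ± 0.06), whose other probe sets differed by 0.43 and 0.05. Among the 9 G1 regulators 2 rose and 2 fell (22.2% each), near the share over all genes, including the cyclin-dependent kinase partner gene Cks30A (0.7 ± 0.07) and the kinase gene Cdk2 (-0.35 ± 0.06).

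Radiation response genes stood higher in irradiated dDP discs than in irradiated de2f1 discs. Of 18 genes 13 were higher and 1 lower, against 14.6% and 16.7% of all genes, with a median of 0.52. The list averaged 10.42 to 10.67 on the dDP, 9.94 to 10.07 on the de2f1 and 10.34 to 10.37 on the wild type arrays. The same genes had 12 higher and 2 lower in untreated discs, against 13.6% and 14.7% of all genes, and the median there was 0.78. For 5 of the 13 higher genes wild type lay nearer de2f1 and for the others nearer dDP. The list was assembled with earlier results of these arrays in view, and it shares genes with other lists. Of the genes described next, agt, rad50, mre11, Irbp, Ku80 and Xpc also stand on the repair list. The largest value of the list, 1.92, is that of spn-E, which also stands on the piRNA list.

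The alkyl-repair gene agt had 11.46, 11.76 and 11.49 in irradiated dDP, 10.37, 10.58 and 10.46 in irradiated de2f1 and 11.06 and 11.05 in irradiated wild type discs (1.1 ± 0.11, adjusted p = 5.3e-06). In untreated discs the difference was 2.09 ± 0.11, and the difference between treatments (-1.0 ± 0.15, adjusted p = 0.0183) was called under 10 of 20 alternatives. rad50 and mre11, which code for subunits of the break-sensing complex, rose by 0.98 ± 0.07 and 0.53 ± 0.08. The Ku subunit genes Irbp (0.93 ± 0.13) and Ku80 (0.5 ± 0.12) rose too, as did the excision repair gene Xpc (0.46 ± 0.05). Rchy1, a ubiquitin ligase gene, had 11.19, 11.03 and 11.24 in dDP, 10.62, 10.82 and 10.78 in de2f1 and 10.98 and 10.99 in wild type discs (0.41 ± 0.07, adjusted p = 6.4e-04), and its untreated difference was larger (1.09 ± 0.07; difference between treatments -0.69 ± 0.1, adjusted p = 0.0117). Corp, a p53 target, had 9.01, 9.76 and 9.39 in dDP and 8.69, 8.75 and 8.65 in de2f1 discs, without overlap (0.69 ± 0.23, adjusted p = 0.0446). The Corp call was lost when any de2f1 array or dDP array 2 or 3 was left out, and under 4 other settings (limma adjusted p over its alternatives 0.0087 to 0.179). p53 (-0.3 ± 0.14, adjusted p = 0.127) did not pass, though it did with array weights and without dDP array 2 (-0.45, adjusted p = 0.0248, over its alternatives 0.0172 to 0.377).

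Many DNA repair genes followed the replication genes, and Claspin and RPA2 stand on both lists. Checkpoint genes were mixed. mei-41, grp, lok, mus304, Rad9, Rad17 and 14-3-3epsilon were not called, with differences of -0.04 to 0.09, whereas tefu, Claspin and Hus1-like rose. Of 43 genes 29 were higher and 1, mus81, lower, against 14.6% and 16.7% of all genes, with a median of 0.46. In untreated discs 26 were higher and 1 lower, against 13.6% and 14.7% of all genes, with a median of 0.44. The helicase gene RecQ4 had 9.25, 9.27 and 9.11 in dDP, 7.15, 7.38 and 7.24 in de2f1 and 7.38 and 7.07 in wild type discs (1.95 ± 0.08, adjusted p = 6.8e-10). The crosslink repair pathway rose through Fancd2 (1.15 ± 0.06, its other probe set differing by 0.08), FANCI (1.4 ± 0.09) and Fancl (0.99 ± 0.07). tefu, the fly ATM kinase, had 10.31, 10.15 and 10.16 in dDP, 9.0, 9.1 and 9.05 in de2f1 and 9.18 and 9.24 in wild type discs (1.16 ± 0.06, adjusted p = 1.8e-08). None of these 5 had a called difference between treatments.

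Of 21 cell death genes 4 were higher (19.0%) and 2 lower (9.52%), a share of calls near that over all genes (14.6% and 16.7%), with a median of 0.06 (-0.04 after quantile normalization), and 2 were higher without de2f1 array 1 or 3 or dDP array 2 or 3. The initiator caspase gene Dronc had 11.04, 11.08 and 11.14 in dDP, 11.04, 11.15 and 11.08 in de2f1 and 11.73 and 11.72 in wild type discs. Mutant arrays overlapped (0.0 ± 0.06, adjusted p = 0.988), and wild type was higher than both. Its activator gene Dark had 10.51, 10.53 and 10.67 in dDP and 10.57, 10.57 and 10.62 in de2f1 discs (-0.02 ± 0.06, adjusted p = 0.869). In untreated discs both were lower in dDP, Dronc by a difference of -0.34 ± 0.06 and Dark by -0.32 ± 0.06, and their differences between treatments were not called (adjusted p = 0.184 and 0.255). The TNF ligand gene egr (-0.21 ± 0.08, adjusted p = 0.0818) and the death inducer gene skl (0.43 ± 0.52, adjusted p = 0.584) did not pass, except egr with array weights (adjusted p = 0.0347, over its alternatives 0.0347 to 0.24) and skl with the 6 arrays fitted alone (0.00414, over its alternatives 0.00414 to 0.714). grim passed (0.43 ± 0.06, adjusted p = 1.1e-04) with every array of both mutants below the floor. AIF, a mitochondrial protein of caspase-independent death, fell by 0.5 ± 0.05, and the Bcl-2 family gene Debcl rose by 0.29 ± 0.07.

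Many targets of JNK signalling and secreted injury signals were higher in dDP discs. Of 24 genes on this list 11 were higher and 1 lower, against 14.6% and 16.7% of all genes, with a median of 0.22. In untreated discs 11 were higher and 2 lower, against 13.6% and 14.7% of all genes, with a median of 0.15. puc, the JNK phosphatase induced by the pathway itself, had 11.33, 11.63 and 11.47 in dDP, 10.54, 10.54 and 10.55 in de2f1 and 10.96 and 11.01 in wild type discs (0.93 ± 0.08, adjusted p = 7.9e-07). Ilp8, the relaxin-like hormone by which damaged discs delay development, had 8.82, 9.81 and 8.65 in dDP, 6.14, 6.47 and 6.34 in de2f1 and 6.17 and 6.34 in wild type discs (2.78 ± 0.27, adjusted p = 4.7e-06). Its lowest dDP array was more than 2 log2 units above every other array. Ets21C, a transcription factor gene activated by JNK, had 7.5, 8.6 and 8.04 in dDP and 5.75, 5.98 and 5.82 in de2f1 discs (2.2 ± 0.27, adjusted p = 4.4e-05). The cytokine gene upd2 (2.44 ± 0.44, adjusted p = 9.8e-04) spread widely within dDP discs, from 7.75 on array 1 to 9.78 on array 2. upd1 (1.08 ± 0.26), the AP-1 subunit gene kay (0.62 ± 0.1) and scaf (0.52 ± 0.09) rose as well. The other probe set of kay differed by 0.00. moody, the lower member, is also a glial gene, and ftz-f1, among the higher members, also stands on the ecdysone response list.

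Many genes of the piRNA pathway, which silences transposons in germ cells, were higher in dDP discs. Of 29 piRNA and nuage genes 15 were higher and 3 lower, against 14.6% and 16.7% of all genes, with a median of 0.28. In untreated discs 13 were higher and 4 lower, against 13.6% and 14.7% of all genes, with a median of 0.30. In cultured Drosophila cells, genes of restricted expression are known among those repressed by E2f2 with Dp and RB proteins. The helicase gene spn-E had 11.29, 11.48 and 11.4 in dDP, 9.41, 9.55 and 9.46 in de2f1 and 9.78 and 9.73 in wild type discs (1.92 ± 0.08, adjusted p = 7.4e-10). Its untreated difference of 2.99 ± 0.08 was larger, and the difference between treatments was called (-1.07 ± 0.11, adjusted p = 9.7e-04). shu, a cochaperone gene for loading piRNAs, had 10.15, 10.38 and 10.27 in dDP, 8.38, 8.38 and 8.47 in de2f1 and 8.76 and 8.75 in wild type discs (1.86 ± 0.1, adjusted p = 1.3e-08). SoYb (2.14 ± 0.12), vret (1.24 ± 0.07) and the nuclease gene zuc (1.16 ± 0.08) rose. del, which marks piRNA clusters for transcription, went the other way, with 7.1, 6.85 and 7.23 in dDP, 8.56, 8.96 and 8.85 in de2f1 and 7.41 and 7.37 in wild type discs (-1.73 ± 0.13, adjusted p = 3.8e-07). Wild type was near dDP, so de2f1 discs were the high group. armi fell by 0.57 ± 0.08.

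Of 22 germline fate genes 3 were higher (13.6%) and 5 lower (22.7%), near the 14.6% and 16.7% of all genes, with a median of -0.01, and 3 were lower without de2f1 array 3 or dDP array 1. Phf7, a chromatin reader gene of male germ cell identity, had 10.9, 10.78 and 10.69 in dDP, 8.86, 9.02 and 8.9 in de2f1 and 8.97 and 9.06 in wild type discs (1.86 ± 0.09, adjusted p = 5.4e-09). bgcn rose by 1.14 ± 0.08. orb, a translational regulator gene of the oocyte, fell by 0.66 ± 0.13 (adjusted p = 0.00211).

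Many nuclear genes for the mitochondrion were lower in irradiated dDP discs. Of 69 mitochondrial ribosomal genes 35 were lower and 1 higher, against 16.7% and 14.6% of all genes, with a median of -0.19. The list averaged 10.12 to 10.16 on the dDP, 10.32 to 10.35 on the de2f1 and 10.27 to 10.32 on the wild type arrays. In untreated discs 14 were lower (20.3%) and 8 higher (11.6%), near the 14.7% and 13.6% of all genes there, with a median of -0.04. The list averaged 10.175, 10.395 and 10.382 on untreated dDP arrays 1, 2 and 3, against 10.345 to 10.352 on the untreated de2f1 arrays. Only dDP array 1 was below the de2f1 arrays. None of the 69 had a called difference between treatments with all arrays. Without dDP untreated array 1 that test called 1284 probe sets, and the number of these genes among them is not given here. mRpL2 had 9.09, 8.97 and 9.08 in dDP, 9.7, 9.69 and 9.65 in de2f1 and 9.7 and 9.69 in wild type discs (-0.63 ± 0.05, adjusted p = 1.0e-06). mRpL9 (-0.68 ± 0.09), mRpL35 (-0.63 ± 0.06) and mRpL44 (-0.5 ± 0.06) fell, and the untreated differences of these 4 were -0.46 to -0.28.

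Respiratory chain and ATP synthase genes fell by smaller amounts, with a median of -0.14. Of 72 genes 31 were lower and 3 higher, against 16.7% and 14.6% of all genes. In untreated discs 13 were lower (18.1%) and 3 higher (4.17%), against 14.7% and 13.6% of all genes, with a median of -0.07. ND-B14.5A, of complex I, had 10.76, 10.98 and 10.86 in dDP, 11.4, 11.35 and 11.32 in de2f1 and 11.29 and 11.28 in wild type discs (-0.49 ± 0.07, adjusted p = 1.5e-04). COX8 (-0.3 ± 0.04) and COX7C (-0.3 ± 0.05), of complex IV, fell, though the other probe set of COX7C differed by 0.25. The 3 rises were of paralogs named as -like: COX7AL had 8.17, 8.56 and 8.33 in dDP, 5.39, 5.55 and 5.25 in de2f1 and 4.65 and 4.79 in wild type discs (2.96 ± 0.1, adjusted p = 9.5e-11), Cyt-c1L rose by 1.31 ± 0.1 and ATPsynepsilonL by 0.45 ± 0.12. The call of ATPsynepsilonL was lost without dDP array 3 (limma adjusted p over its alternatives 0.00436 to 0.0537). In the citric acid cycle 8 of 17 genes were lower and none higher (median -0.13), against 16.7% and 14.6% of all genes. In untreated discs 3 were lower (17.6%) and 0 higher (median -0.12), against 14.7% and 13.6% of all genes there. Among those lower in irradiated discs were mAcon1 (-0.54 ± 0.11) and Idh3b (-0.38 ± 0.07). The pyruvate carrier gene Mpc1 moved against these, with 9.26, 9.25 and 9.13 in dDP, 8.43, 8.42 and 8.36 in de2f1 and 8.01 and 8.29 in wild type discs (0.81 ± 0.07, adjusted p = 1.4e-06). Every dDP array of Mpc1 was above all de2f1 and wild type arrays.

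Proteasome genes mostly fell. Of 40 genes 24 were lower and 3 higher, against 16.7% and 14.6% of all genes, with a median of -0.22. In untreated discs 26 were lower and 4 higher, against 14.7% and 13.6% of all genes, with a median of -0.25. The regulatory particle gene Rpn7 had 12.12, 11.98 and 12.08 in dDP, 12.49, 12.55 and 12.52 in de2f1 and 12.62 and 12.59 in wild type discs (-0.46 ± 0.04, adjusted p = 4.5e-06). Rpn5, Rpn12, Rpt2 and Rpn8 fell too, with differences of -0.44 to -0.39. Wild type was nearer the de2f1 mean for each of the 24 lower members. The rises were of paralogs of the standard subunits, Rpt3R having 10.7, 10.53 and 10.72 in dDP, 8.39, 8.6 and 8.54 in de2f1 and 8.07 and 7.89 in wild type discs (2.14 ± 0.1, adjusted p = 2.1e-09), with Rpn12R (0.55 ± 0.12) and Prosbeta2R2 (0.42 ± 0.1) near the floor. Of 37 cytoplasmic ribosomal protein genes 3 were higher and 1 lower (median 0.01), against 14.6% and 16.7% of all genes.

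**Figure D4:**
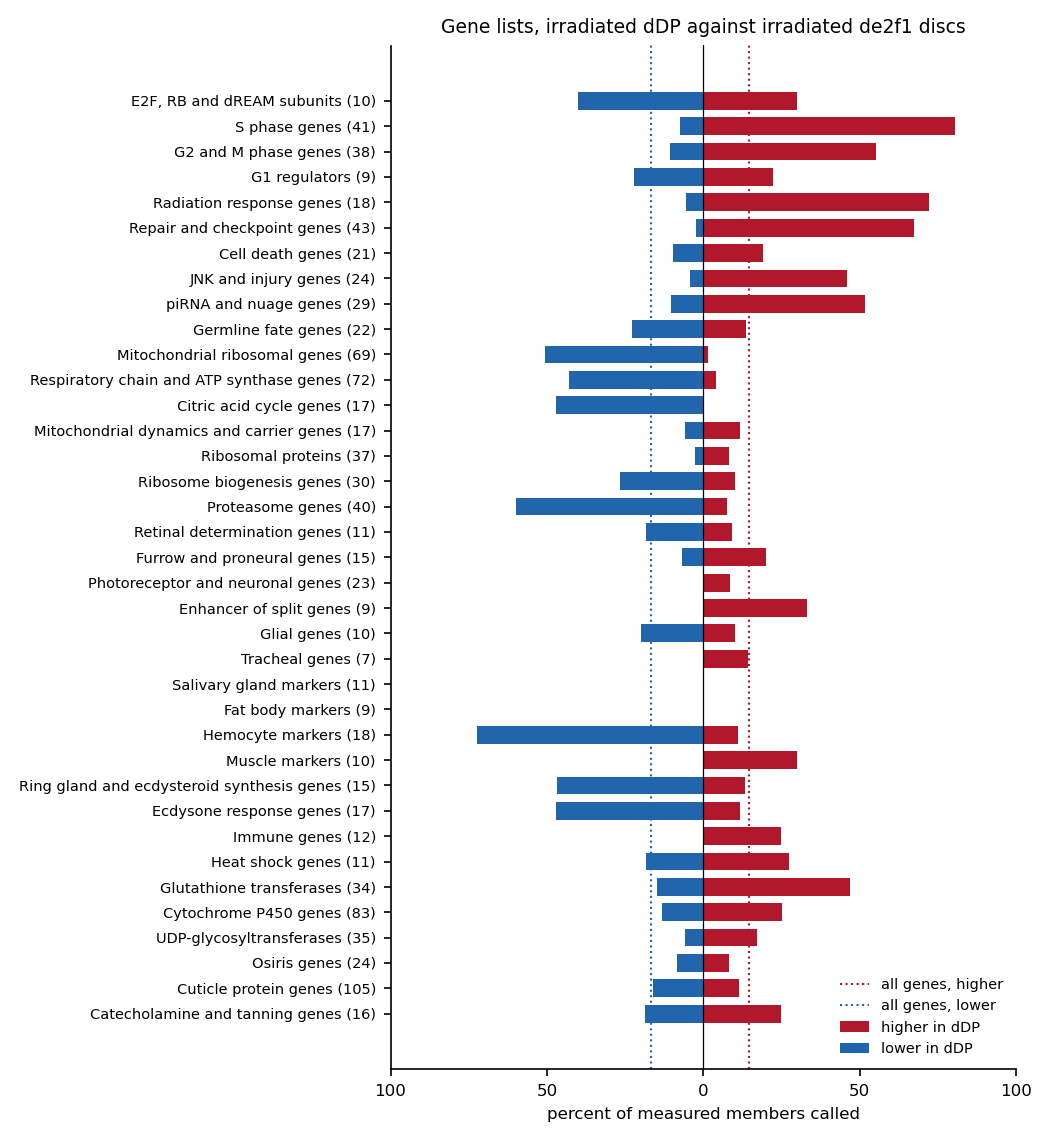
Percent of measured members (number in parentheses) called higher (red, to the right) or lower (blue, to the left) in irradiated dDP than in irradiated de2f1 discs for each of 37 gene lists, with dotted lines at the 14.6% and 16.7% of all genes. S phase, radiation response and repair genes reach far to the right, and hemocyte markers, proteasome and mitochondrial ribosomal genes to the left. The lists were chosen with earlier results of these data known.

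Glutathione transferases, enzymes of detoxification, leaned higher in dDP discs. Among 34 glutathione transferase genes 16 were higher and 5 lower, against 14.6% and 16.7% of all genes, with a median of 0.26. In untreated discs 17 were higher and 7 lower, against 13.6% and 14.7% of all genes, with a median of 0.40. GstD3 had 12.86, 13.33 and 12.99 in dDP, 11.27, 11.41 and 11.25 in de2f1 and 11.32 and 11.52 in wild type discs (1.75 ± 0.15, adjusted p = 1.0e-06). GstD5 (2.78 ± 0.31), GstE9 (1.91 ± 0.21) and GstD9 (1.39 ± 0.16) rose, and GstZ1 fell by 0.9 ± 0.06. Members of the GstD and GstE clusters are close in sequence, so their probes may share signal. Of 83 cytochrome P450 genes 21 were higher (25.3%) and 11 lower (13.3%), against 14.6% and 16.7% of all genes (median 0.10). Cyp6d2 had 11.63, 11.82 and 11.46 in dDP, 9.77, 9.7 and 9.82 in de2f1 and 10.28 and 10.38 in wild type discs (1.87 ± 0.12, adjusted p = 8.7e-08), whereas for Cyp6a20 (2.49 ± 0.35) wild type, at 7.86 and 8.12, was near the dDP arrays.

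Genes of the ecdysone response, which times the end of larval life, and of ecdysone synthesis leaned lower in dDP discs. Of 17 response genes 8 were lower and 2 higher, against 16.7% and 14.6% of all genes, with a median of -0.31. The same counts held in untreated discs, against 14.7% and 13.6% of all genes there, with a median of -0.37. With the 6 irradiated arrays fitted alone 5 response genes were lower. The nuclear receptor gene Hr4 had 7.89, 6.43 and 8.34 in dDP, 10.05, 9.79 and 9.75 in de2f1 and 10.14 and 9.66 in wild type discs (-2.31 ± 0.35, adjusted p = 2.5e-04), with dDP array 2 lowest. Its other probe sets differed by -0.45 and -0.25. Blimp-1 (-1.88 ± 0.32) and Eip78C (-1.56 ± 0.27) fell with the same order of dDP arrays. The 2 members that rose were ftz-f1 and Cyp18a1. The receptor gene ftz-f1 had 9.23, 9.66 and 8.82 in dDP and 7.78, 7.47 and 7.47 in de2f1 discs (1.66 ± 0.19, adjusted p = 2.3e-05). Cyp18a1, whose product inactivates ecdysone, rose by 1.95 ± 0.35.

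Ecdysteroid synthesis genes, known mainly from the ring gland, had 7 of 15 lower and 2 higher (median -0.65), against 16.7% and 14.6% of all genes. spok had 7.31, 9.53 and 8.36 in dDP, 11.46, 11.12 and 10.79 in de2f1 and 10.7 and 11.94 in wild type discs (-2.72 ± 0.58, adjusted p = 0.00322). sad (-1.73 ± 0.42), GstE14 (-2.31 ± 0.44) and the cholesterol transporter gene Start1 (-1.0 ± 0.16) fell with it. The list averaged 7.33 to 8.24 on the dDP arrays, 8.38 to 8.79 on the de2f1 and 8.49 to 9.04 on the wild type arrays. Whether attached ring gland tissue contributed to these levels was not tested.

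Hemocyte markers showed the highest share of lower members of the 37 lists. Of 18 markers 13 were lower and 2 higher, against 16.7% and 14.6% of all genes, with a median of -0.58. In untreated discs 11 were lower and 0 higher, against 14.7% and 13.6% of all genes, with a median of -0.92. The list averaged 7.45 to 7.68 on the dDP arrays, 8.40 to 8.69 on the de2f1 and 8.26 to 8.32 on the wild type arrays. PPO1, a prophenoloxidase of crystal cells, had 7.45, 7.24 and 6.69 in dDP, 10.24, 11.41 and 10.92 in de2f1 and 9.56 and 10.64 in wild type discs (-3.73 ± 0.4, adjusted p = 1.2e-05). PPO2, of the same cells, fell by 3.38 ± 0.36. Among plasmatocyte genes Hml had 8.13, 8.11 and 7.18 in dDP, 9.11, 9.47 and 9.08 in de2f1 and 8.58 and 8.71 in wild type discs (-1.41 ± 0.31, adjusted p = 0.0043), and eater (-1.51 ± 0.28), He (-1.58 ± 0.28) and Pxn (-1.35 ± 0.21) fell. The other probe set of Pxn differed by -0.02. lz, which marks crystal cells but also eye disc cells, did not pass (-0.06, adjusted p = 0.74). The part of hemocyte number in other differences was not tested.

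**Figure D5:**
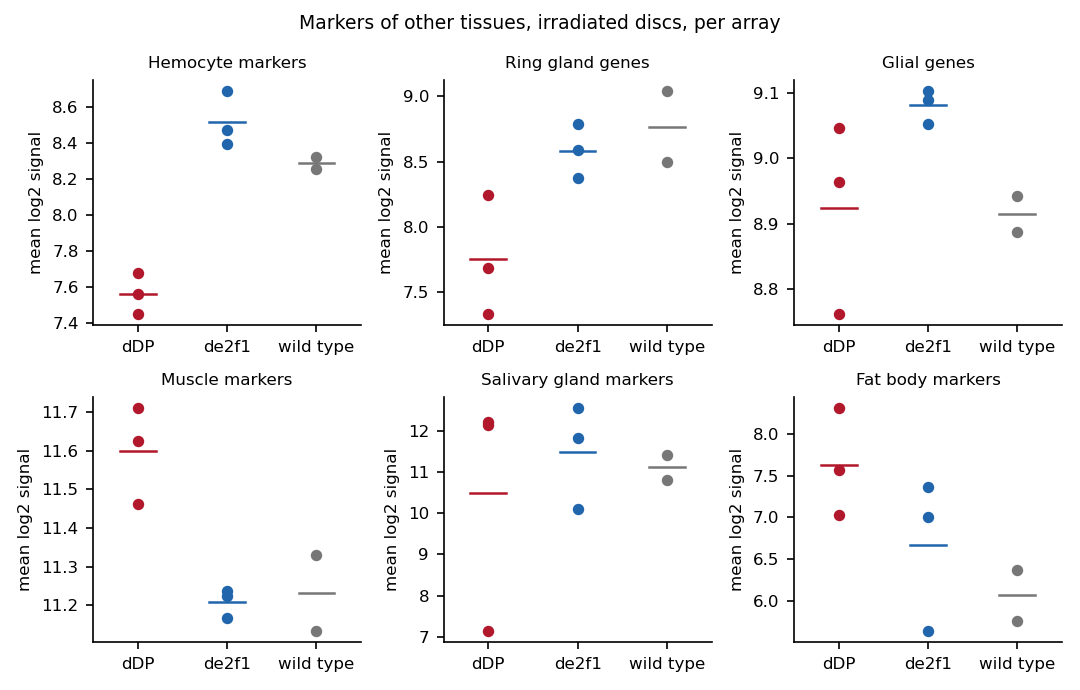
Mean log2 signal of marker lists for 6 other tissues on each irradiated array (points, bars for group means) in dDP, de2f1 and wild type discs. Hemocyte and ring gland lists are lower on all 3 dDP arrays, muscle markers higher, and salivary gland markers are low on dDP array 1 alone.

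In irradiated discs eye patterning genes were called about as often as genes at large, of which 14.6% were higher and 16.7% lower. Of 11 retinal determination genes 1 was higher and 2 lower (none lower without de2f1 array 3), and of 15 furrow and proneural genes 3 higher and 1 lower (medians 0.05 and 0.07, the first -0.14 at its lowest over the alternatives). In untreated discs 1 retinal determination gene was higher and 4 lower (median -0.15), against 13.6% and 14.7% of all genes there. Of the furrow and proneural genes 2 were higher and 2 lower there (median 0.003). The teashirt relative tio had 8.27, 8.22 and 8.08 in dDP, 6.74, 7.25 and 6.78 in de2f1 and 8.33 and 8.44 in wild type discs (1.27 ± 0.16, adjusted p = 4.8e-05). The morphogen gene dpp rose by 0.51 ± 0.09 and hry, the hairy repressor gene, by 0.75 ± 0.09, while the proneural gene ato had 10.07, 10.03 and 9.85 in dDP, 10.29, 10.45 and 10.38 in de2f1 and 10.42 and 10.44 in wild type discs (-0.39 ± 0.08, adjusted p = 0.00194). Among 23 photoreceptor and neuronal genes sev (0.52 ± 0.11) and chp (0.67 ± 0.18) were higher and none lower (median 0.21), with 1 higher without de2f1 array 1 or dDP array 3 and 4 or 5 under other settings. The chp call was lost without de2f1 array 1 or dDP array 3 (limma adjusted p over its alternatives 0.00145 to 0.0615). Of 9 Enhancer of split genes, the targets of Notch, 3 were higher, E(spl)m3-HLH by 0.48 ± 0.04, and 5 with array weights. Of 10 glial genes 2 were lower and 1 higher in irradiated discs (median -0.01), again near the share over all genes. In untreated discs 4 glial genes were lower (40%) and 0 higher (median -0.19), against 14.7% and 13.6% of all genes there. The glial master gene repo had 7.83, 7.69 and 7.89 in dDP, 8.21, 8.51 and 8.28 in de2f1 and 9.02 and 8.95 in wild type discs (-0.53 ± 0.1, adjusted p = 0.00173). In irradiated discs moody was the other lower glial gene (-0.64 ± 0.16) and loco the higher one (0.26 ± 0.08, limma adjusted p = 0.0387). The loco call was lost when any 1 of the 6 arrays was left out and with the salivary covariate (limma adjusted p over its alternatives 0.0061 to 0.137).

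Ddc, the dopa decarboxylase of cuticle tanning, had 11.78, 12.7 and 12.2 in dDP, 9.55, 8.77 and 9.44 in de2f1 and 8.48 and 8.85 in wild type discs (2.97 ± 0.27, adjusted p = 2.4e-06), and its neighbour amd rose by 1.8 ± 0.16. Of the 105 cuticle protein genes 12 were higher and 17 lower, near the share over all genes, and 9 to 16 were lower with 1 array left out. Of 10 muscle markers 3 were higher, such as Act87E (0.79 ± 0.11), and none lower, against 14.6% and 16.7% of all genes. With array weights 5 muscle markers were higher. No salivary gland or fat body marker was called by limma (0 of 11 and 1 of 9 had an unadjusted p under 0.05), 1 or 2 fat body markers being higher under 4 alternatives, among them the salivary covariate. Of 12 immune genes 3 were higher (25.0%) and none lower, against 14.6% and 16.7% of all genes, Rel by 0.6 ± 0.07. All 12 values were above 0, with a median of 0.52. In untreated discs 9 were higher (75%) and none lower, against 13.6% and 14.7% of all genes, with a median of 0.82. Of 11 heat shock genes 3 were higher (27.3%) and 2 lower (18.2%), against 14.6% and 16.7% of all genes. The number higher changed with array weights and with the 6 arrays fitted alone. DnaJ-1 (0.34, limma adjusted p = 0.0452) was not called with those 6 alone (0.123). Its call was also lost without de2f1 array 1 or 2 or dDP array 2 or 3. The chaperone gene Hsp68 had 10.08, 11.75 and 12.001 in dDP, 9.61, 9.84 and 9.79 in de2f1 and 9.87 and 10.06 in wild type discs (1.53 ± 0.37, adjusted p = 0.00665). Its dDP array 1 lay close to the de2f1 arrays, and the call was lost with the 6 arrays fitted alone (limma adjusted p over its alternatives 6.5e-06 to 0.0558). The chaperone regulator gene stv had 11.4, 11.87 and 11.92 in dDP, 10.4, 10.45 and 10.41 in de2f1 and 10.41 and 10.51 in wild type discs (1.31 ± 0.11, adjusted p = 1.3e-06).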

How the data were processed

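Total RNA of whole eye discs was hybridised to Affymetrix Drosophila Genome 2.0 arrays. The deposited values are log2 signals. The authors summarised them by RMA (named in the submitters' processing notes without a version). RMA adjusts background and equalises array distributions, so a shift shared by all genes is removed. No array reports read depth, so the number of arrays limits precision. Of 18952 probe sets 183 controls were left out. Gene names came from the platform annotation: 13647 probe sets have 1 gene symbol, 402 several and 4720 none. A gene with several probe sets is given by the one with the highest mean. Differences were fitted with limma 3.58.1 in R 4.3.3, with 1 mean per group over all 17 arrays and Benjamini-Hochberg adjustment over 18769 probe sets. The fit was tested on simulated data.

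Replicates are biological per the labels. Equal numbers did not pair the samples. Genes were named by a rule: a fixed set, the 12 largest non-overlapping calls per direction, and up to 6 called members per list with the smallest adjusted p. Psf1, RfC3, mus81, mre11, Ku80, upd1, upd2, scaf, del, armi, ATPsynepsilonL, Rpn12R, Prosbeta2R2, sad, Hml and lz were added after their values were seen. Members and lists were chosen with earlier results of these data known. CycA, stg and dap are not analysed here. Alternatives covered the prior, array weights, dim probe sets, probe set choice, normalization, the arrays fitted, a replicate block, the salivary covariate and leaving out each array.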

Additional observations from a re-analysis of the deposited data

Results flagged for a closer look

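The genotype difference itself differed between irradiated and untreated discs for 22 of 18769 probe sets (limma, adjusted p under 0.05), 12 with a value above 0 and 10 below. Each value is the irradiated minus the untreated difference between dDP and de2f1 discs, on the log2 scale. For 6 of the genes a large difference in untreated discs was smaller or larger after radiation: Cyp6a17 by -1.71, spn-E by -1.07, CG5250 by -1.07, CG11125 by -1.02, agt by -0.996 and Rchy1 by -0.686. The gene sofe stood at -0.722, CG4036 at -0.667, the germline gene mia at -0.581 and the peroxisomal racemase gene Amacr at -0.52. In the other direction stood CG33468 at 1.0, Osi4 at 0.936, the receptor gene mthl1 at 0.783, the calcium channel subunit gene Ca-Ma2d at 0.712, the chloride channel gene Cftr at 0.666, dup at 0.66, CG32195 at 0.654 and CG9331 at 0.447. Unnamed probe sets gave 1.88, 1.06, 0.866 and 0.396. The Ca-Ma2d probe set is not the brightest of its gene, and its mutant group means, 4.63 to 5.24, were close to the floor. Of the 22 calls, some held under fewer of the alternatives run: CG9331 under 11 of 20, agt under 10, mthl1 and Cftr under 9, Amacr under 7, the unnamed probe set at 0.396 under 6 of 20 and Ca-Ma2d under 6 of 19. The other 15 held under 18 to 20 of 20.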

How the results depend on the processing

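Of 210 named genes 202 were called, and 182 of those under each of 15 alternatives. Most named genes were chosen because they were called, often with the smallest adjusted p of a list. These counts therefore do not measure how stable calls are at large. Gene values kept their direction except for 4 near 0. With 1 array left out, CycE ran from -0.119 to 0.0522, Dronc from -0.0288 to 0.0294 and Dark from -0.068 to 0.0151. Dronc was 0.0116 with array weights and 7.6e-04 with the salivary covariate, and CG11125 was -0.0138 after quantile normalization. The cause was not tested. With a replicate block, which the numbers did not support since deviations of same-numbered samples correlated at -0.214, -0.003 and 0.097 and 1 of 6 arrays matched its own number best, counts were 4650 irradiated, 3958 untreated and 18 for the difference between treatments. Fitting only the arrays of the contrast gave 2360 untreated calls in place of 4184 and 14 between treatments in place of 22, with fewer samples behind the spread. Between treatments, array weights gave 1365 and leaving out the 40% dimmest probe sets 35, with fewer tests. Quantile normalization moved the gene median to -0.032 and the higher share of calls to 41.1%, against 44.7%.

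With 1 array left out, calls numbered 3853 to 4202 in irradiated discs, 3172 to 4982 in untreated discs and 14 to 1284 between treatments. Ranges of members called higher were 29 to 31 for S phase, 15 to 21 for G2 and M phase, 10 to 13 for radiation response, 25 to 28 for repair, 10 to 13 for JNK, 12 to 17 for piRNA, 15 to 17 for glutathione transferase and 17 to 20 for P450 genes. Members called lower were 26 to 34 for mitochondrial ribosomal, 22 to 27 for respiratory, 22 to 24 for proteasome, 10 to 13 for hemocyte and 9 to 16 for cuticle genes. List medians moved by more than the replicate SD in 51 of their values under the alternatives. The JNK median ran from 0.187 to 0.285 (moved under 5 of 6 omissions) and the glutathione transferase median from 0.19 to 0.34 (4 of 6).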
